A study of Mus musculus with 12 samples.

Results

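Day 8 plasmablasts (PBs) that lack Xbp1 were compared directly with day 8 PBs that lack Mist1. The 4 libraries of this comparison were chosen by genotype from the 12 samples of the series. The Xbp1 mutant libraries, 2 in number, are labelled *Cd23*-Cre *Xbp1*(fl/fl), and the Mist1 mutant libraries, also 2, are labelled *Bhlha15*(CreER/CreER). A further group of 2 libraries, labelled *Xbp1*(fl/fl) and without Cre, served as a reference that was not part of the choice and is named reference PBs here. All 6 libraries came from spleen B cells of C57BL/6 mice that were grown in the iGB system, a co-culture on irradiated 40LB feeder fibroblasts which present CD40 ligand and BAFF, with IL-4 for 4 days and then with IL-21 for 4 days. PBs were sorted from these cultures with gates that included CD138 and the absence of CD23. The *Cd23*-Cre transgene acts in B cells, so that *Xbp1* was deleted in the B lineage only, whereas the CreER knock-in inactivates *Bhlha15* in every cell of the mouse and was carried without *Cd23*-Cre. Effects of the *Cd23*-Cre transgene, which neither *Xbp1*(fl/fl) nor *Bhlha15*(CreER/CreER) PBs carried, and of the loss of *Xbp1* can therefore not be told apart. The labels do not state which libraries came from separate mice, and the p-values measure the spread between these libraries. Single values are also given from TACI+CD138+ spleen plasma cells (PCs) sorted at day 7 after immunization with NP-KLH, with 2 libraries labelled wildtype, which the methods of the study name *Bhlha15*(fl/fl), and 2 labelled *Cd23*-Cre *Bhlha15*(fl/fl). Mist1 binding was taken from 2 Bio-ChIP-seq experiments on *Bhlha15*(fl/fl) *R26*(BirA/BirA) B cells stimulated with LPS for 4 days.

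Xbp1 is a transcription factor of the unfolded protein response. The ER stress sensor Ire1 removes a short intron from *Xbp1* mRNA, and the protein made from the spliced mRNA, Xbp1s, activates genes for the import, folding, glycosylation and export of secreted proteins. Mist1, encoded by *Bhlha15*, is a basic helix-loop-helix factor of secretory cells such as plasma cells and pancreatic acinar cells, where it is known for its role in secretory granules and cell architecture.

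Both mutated genes were examined first. *Bhlha15* (mm9 chr5:144951155-144955310, plus strand) was at 0.210 and 0.551 TPM in Mist1 mutant PBs, at 3.57 and 2.60 TPM in Xbp1 mutant PBs and at 176 and 159 TPM in reference PBs. Its mRNA was thus low in both mutant groups without overlap between them, with a level that was 5.98-fold higher in Xbp1 mutant than in Mist1 mutant PBs (log2 fold change 2.58 ± 0.35 (SE), adjusted p = 8.8e-04). *Xbp1* (mm9 chr11:5420662-5425896, plus strand) was at 1981 and 2024 TPM in Xbp1 mutant, 2978 and 2917 TPM in Mist1 mutant and 3168 and 3043 TPM in reference PBs. The gene-level *Xbp1* value was 1.75-fold lower in Xbp1 mutant PBs (log2 fold change -0.81 ± 0.12, adjusted p = 0.0018), and it does not separate the deleted part of the gene from the rest. TPM are given per library as deposited by the authors, whereas fold changes are on the log2 scale of TPM that were scaled between libraries, with a pseudocount of 0.1, and adjusted p-values are from limma over all 12125 genes tested. Fold changes of genes with low TPM are understated on this scale.

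The libraries of each group resembled each other closely. The median absolute log2 difference between replicate libraries was 0.0979 for Xbp1 mutant, 0.164 for Mist1 mutant and 0.107 for reference PBs, and 11514 to 12024 genes reached 1 TPM. Plasma cell genes were present in every library. *Sdc1*, which codes for CD138, was at 157 and 157 TPM in Xbp1 mutant, 164 and 163 TPM in Mist1 mutant and 166 and 157 TPM in reference PBs. *Col1a1*, a collagen gene of fibroblasts, was between 460 and 904 TPM in the 6 libraries and *Cd3e*, a T cell gene, between 0 and 0.0856 TPM.

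A gene was called when its levels differed more than 3-fold, its adjusted p was below 0.05 and the group with more of its mRNA exceeded a mean of 5 TPM. By this rule, 201 genes were lower in Xbp1 than in Mist1 mutant PBs (1.66% of the genes tested) and 29 were higher (0.239%). The called lower genes had a median log2 fold change of -1.97 and the called higher genes of 2.02, against a median of 0.01 over all genes tested. The deposited TPM of the 2 mutant groups did not overlap in any of these 201 and 29 genes. The same was true of 9186 of all 12125 genes tested, so that lack of overlap alone sets no gene apart. Small RNA genes of the Mir, Snora and Snord families made up 8 of the lower and 2 of the higher genes and are not named further. At an adjusted p under 0.05 with no limit on fold, 2155 genes were lower (17.8%) and 1132 were higher (9.34%). This split depended on the scaling, as the TPM without scaling, which move the median of all genes to 0.26, gave 1266 lower and 3977 higher genes, and quantile normalization gave 1854 and 2333. The called genes were less affected, with 135 lower and 40 higher genes without scaling and 172 and 30 with quantile normalization.

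**Figure D1:**
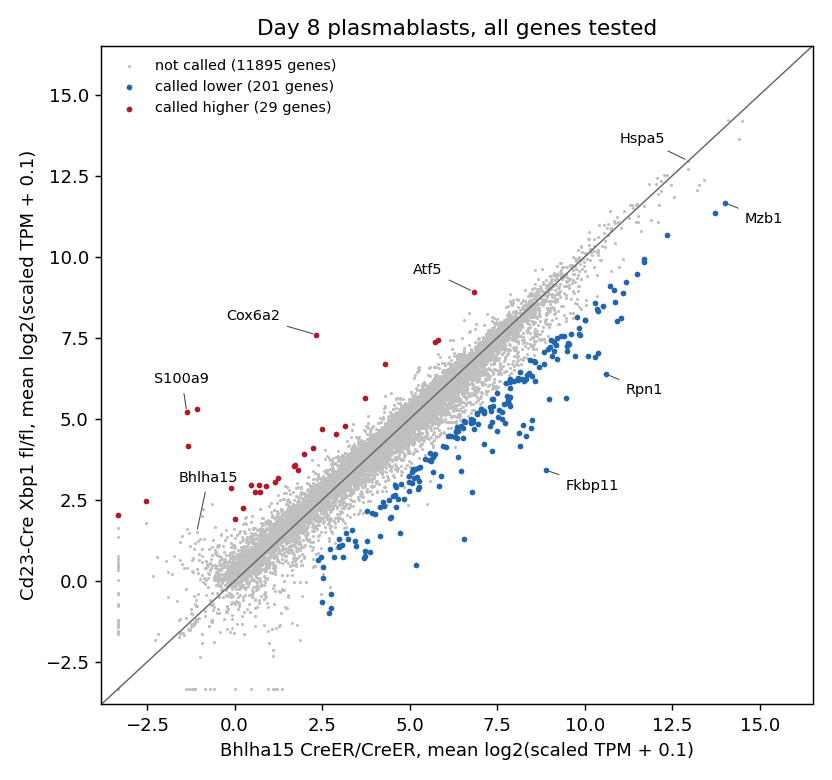
Each point is 1 of the 12125 genes tested, placed by its mean log2(scaled TPM + 0.1) over 2 libraries of Mist1 mutant PBs (horizontal axis) and of Xbp1 mutant PBs (vertical axis). The 201 genes called lower (blue) lie well below the line of equality and reach high expression levels, whereas the 29 genes called higher (red) mostly have low to intermediate levels, and *Hspa5* lies on the line.

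The called genes were next placed relative to the reference PBs, whose levels were not part of the fold change or of the TPM limit of a call, although these libraries entered the scaling, the filter and the estimate of the spread. A fit of the 4 compared libraries alone called 203 lower and 28 higher genes. The mean of reference PBs on the log2 scale was closer to the Mist1 mutant than to the Xbp1 mutant mean in 198 of 201 called lower genes (98.5%) and in 27 of 29 called higher genes (93.1%), compared with 70.6% of all genes tested. Each reference library taken alone was on the same side in these 198 and 27 genes. Mist1 mutant PBs were within 1.5-fold of reference PBs in 190 of the 201 called lower and 21 of the 29 called higher genes. The same held for 11655 of all 12125 genes tested, so that this closeness is not particular to the called genes. A called gene differs more than 3-fold between the mutants, so closeness within 1.5-fold places the reference on the Mist1 mutant side by arithmetic. The shares of 98.5% and 93.1% thus follow largely from the rule and this general closeness. Most of the genes behind the 70.6% do not differ as much, so it is no like comparison. *Ngp*, *Camp* and *Soat2* among the called higher genes passed the filter only through the Xbp1 mutant libraries. The direct comparison of Mist1 mutant with reference PBs called 4 genes lower (0.033%) and 2 higher (0.0165%), while that of Xbp1 mutant with reference PBs called 198 (1.63%) and 29 (0.239%). These latter comparisons share the reference libraries. A total of 1267 genes had an unadjusted p under 0.05 between Mist1 mutant and reference PBs, and 33 lower (0.272%) and 6 higher genes (0.0495%) passed the adjustment.

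**Figure D2:**
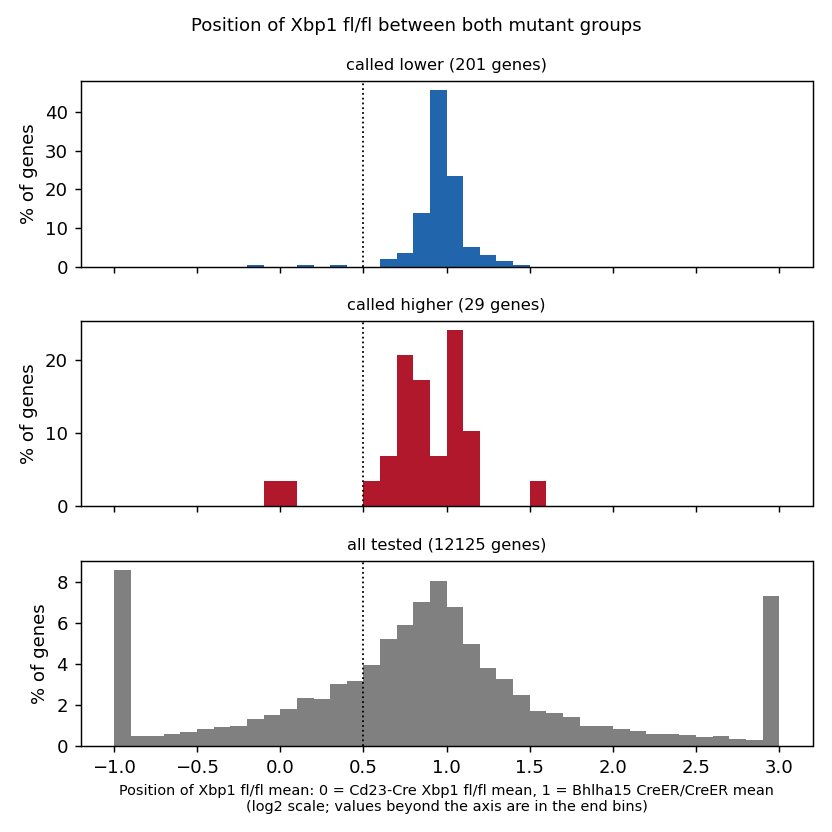
Position of the reference mean between both mutant means on the log2 scale, as the percentage of genes in bins, where 0 is the Xbp1 mutant mean and 1 the Mist1 mutant mean, for called lower genes (top), called higher genes (middle) and all genes tested (bottom), with values beyond the axis in the end bins. The median position was 0.967 for called lower, 0.891 for called higher and 0.879 for all genes, and the called lower genes form a narrow peak next to 1. The position is divided by the difference between both mutants, which is large in called genes by rule, so part of this narrowness follows from the rule.

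The genes of the secretory pathway were then examined in 6 lists of 197 genes, ordered by the route of a secreted protein. Of 192 genes tested, 164 were lower in Xbp1 mutant than in Mist1 mutant PBs at an adjusted p under 0.05 and 2 were higher, namely *Ero1l* and *Pmm1*, and 66 of the 192 were called lower. These shares compare with 17.8% and 1.66% over all genes. Together the 197 genes took up 8.01% and 8.08% of the TPM in Xbp1 mutant PBs, 14.0% and 14.3% in Mist1 mutant PBs and 14.1% and 13.6% in reference PBs. Fewer mRNAs per cell and fewer cells with these mRNAs cannot be told apart in bulk RNA.

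Entry into the ER was represented by 24 tested genes of the translocon and signal peptide handling, of which 21 were lower and none was higher, with 10 called and a median log2 fold change of -1.49. *Sec61a1*, the channel subunit of the translocon, was at 219 and 216 TPM in Xbp1 mutant, 887 and 854 TPM in Mist1 mutant and 963 and 892 TPM in reference PBs. The Xbp1 mutant libraries were low and apart from the other 4, and the difference amounted to 4.76-fold (log2 fold change -2.25 ± 0.09, adjusted p = 1.6e-06). The small channel subunits *Sec61b* and *Sec61g*, the signal recognition particle receptor subunit *Srprb* and the translocon-associated *Ssr3* were 4.71-fold, 5.76-fold, 4.32-fold and 4.11-fold lower, and the signal peptidase subunit *Spcs3* was 2.86-fold lower.

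N-glycosylation genes were lower in 31 of 38 tested cases, with 11 called, none higher and a median of -0.92. *Rpn1*, a subunit of the oligosaccharyltransferase that transfers glycans to nascent proteins, was at 97.9 and 88.8 TPM in Xbp1 mutant, 1485 and 1460 TPM in Mist1 mutant and 1485 and 1428 TPM in reference PBs. This 18.8-fold difference (log2 fold change -4.23 ± 0.10, adjusted p = 1.2e-07) was larger than those of the other subunits named here. *Ddost*, *Rpn2* and the catalytic subunit *Stt3a* were 7.56-fold, 7.47-fold and 4.08-fold lower, whereas the second catalytic subunit *Stt3b* was 2.38-fold lower and not called. *Mogs*, the first glucosidase to trim the glycan, and *Uggt1*, the sensor which reglucosylates misfolded glycoproteins, fell 5.48-fold and 4.27-fold. Without scaling of the libraries, 25 of the 38 genes were lower and 3 were higher.

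ER chaperones and folding enzymes had the largest median among these lists, with -1.69 over 36 tested genes, of which 31 were lower, 1 was higher and 21 were called. *Fkbp11*, a peptidyl-prolyl isomerase of the ER, was at 13.6 and 10.4 TPM in Xbp1 mutant, 438 and 461 TPM in Mist1 mutant and 424 and 467 TPM in reference PBs. No other named gene fell as far, by 44.7-fold (log2 fold change -5.48 ± 0.13, adjusted p = 1.2e-07). The nucleotide exchange factor *Hyou1* was at 136 and 132 TPM in Xbp1 mutant, 1223 and 1147 TPM in Mist1 mutant and 1206 and 1170 TPM in reference PBs, a 10.5-fold difference. *Mzb1*, a chaperone of immunoglobulin M, reached 3707 and 3547 TPM in Xbp1 mutant, 14897 and 16199 TPM in Mist1 mutant and 15573 and 14995 TPM in reference PBs. Although *Mzb1* remained abundant, it was 5.10-fold lower (adjusted p = 5.5e-05). *Erp44*, which retains unassembled proteins, the J-domain cochaperones *Dnajb9* and *Dnajc3*, and the Hsp70 family member *Hspa13* were 14.1-fold, 13.5-fold, 10.1-fold and 10.8-fold lower.

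*Hspa5*, which codes for the main ER Hsp70 chaperone BiP, did not follow these genes. It was at 8616 and 9223 TPM in Xbp1 mutant, 7425 and 7567 TPM in Mist1 mutant and 7262 and 7136 TPM in reference PBs. The deposited values were thus highest in the Xbp1 mutant libraries, while after scaling the log2 fold change was 0.00 with a 95% interval from -0.40 to 0.40 (adjusted p = 0.999). The direction of *Hspa5* depended on the scaling, since it was 0.25 higher on the log2 scale without scaling (adjusted p = 0.0055) and 0.91 higher with quantile normalization (adjusted p = 4.2e-07).

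**Figure D3:**
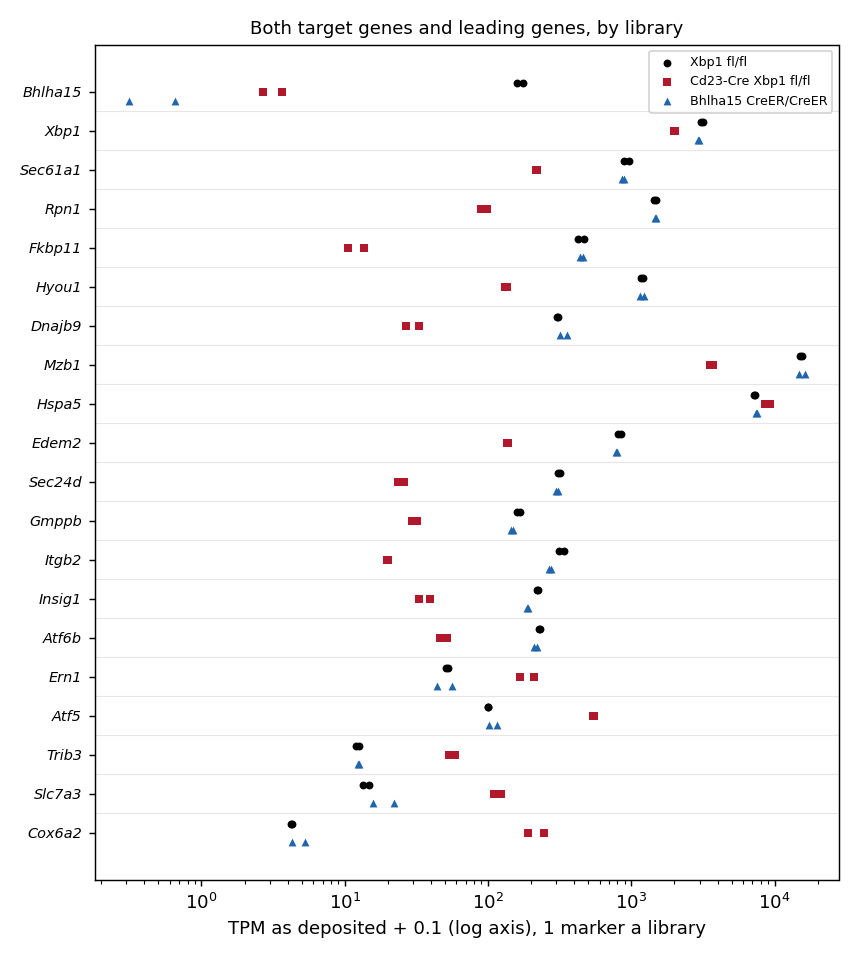
TPM as deposited plus 0.1 on a log axis for both mutated genes and for leading genes of the lists, with 1 marker for each of the 6 libraries. The Mist1 mutant (blue) and reference libraries (black) lie close together except at *Bhlha15*, and the Xbp1 mutant libraries (red) lie to the left of both from *Sec61a1* to *Mzb1* and from *Edem2* to *Atf6b*, and to their right at *Hspa5* and from *Ern1* to *Cox6a2*.

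The promoters of the called genes were searched for letters that Xbp1s and Mist1 are known to bind. Windows of 300 bases, from 250 before to 50 after the start of the longest coding transcript, were read from mm9 with GENCODE M1 models and were found for 174 of the 201 called lower genes (86.6%), 26 of the 29 called higher genes and 10859 of all genes tested. Matches were searched on both strands. The ER stress response element, which is CCAAT and CCACG with 9 bases between them, was present in 4 promoters of called lower genes (2.30%), none of the called higher genes and 14 of all genes tested (0.129%). The 4 genes were *Creld2*, *Dnajc3*, *Ero1lb* and *Pdia6*, which all act in ER protein folding or its control. The longer Xbp1 element TGACGTGG was found in 9 promoters of called lower genes (5.17%) and in 0.939% of all genes tested, and its core ACGTG in 42.5% of the called lower, 23.1% of the called higher and 25.9% of all genes tested. CCACG, which overlaps the ER stress response element and ACGTG, was present in 66.1%, 26.9% and 47.3%, and the E-box CANNTG of helix-loop-helix factors in 69.5%, 73.1% and 62.3%. Over all 22232 coding genes, these shares were 0.103%, 0.760%, 20.7%, 36.6% and 69.0% in the same order. A match is a description of the letters and does not show binding. The shares were not matched for expression, although only called genes had to exceed a mean of 5 TPM.

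The 250 bases before the start are shown for the 4 called genes with the ER stress response element, for *Hspa5* and *Derl3*, which carry it but were not called, and for *Sec24d* with the longer Xbp1 element. Capitals mark the ER stress response element on either strand or, in *Sec24d*, TGACGTGG, and the sequences are written 5′ to 3′ on the strand of the gene.
Creld2 (mm9 chr15:88649826-88650075, plus strand): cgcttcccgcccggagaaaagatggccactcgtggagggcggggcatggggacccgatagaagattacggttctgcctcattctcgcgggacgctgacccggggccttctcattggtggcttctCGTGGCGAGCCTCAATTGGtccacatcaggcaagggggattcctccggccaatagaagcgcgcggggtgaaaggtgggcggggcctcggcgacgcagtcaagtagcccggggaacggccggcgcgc
Dnajc3 (mm9 chr14:119336904-119337153, plus strand): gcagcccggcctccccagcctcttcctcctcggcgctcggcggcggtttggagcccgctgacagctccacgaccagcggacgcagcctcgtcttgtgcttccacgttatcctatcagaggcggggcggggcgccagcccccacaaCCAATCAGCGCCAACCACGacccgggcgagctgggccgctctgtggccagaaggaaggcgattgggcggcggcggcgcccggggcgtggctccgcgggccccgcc
Ero1lb (mm9 chr13:12657900-12658149, plus strand): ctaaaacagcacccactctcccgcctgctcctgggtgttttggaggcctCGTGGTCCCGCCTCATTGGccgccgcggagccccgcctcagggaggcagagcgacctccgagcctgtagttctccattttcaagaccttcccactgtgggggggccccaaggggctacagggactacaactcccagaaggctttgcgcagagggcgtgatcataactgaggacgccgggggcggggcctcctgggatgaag
Pdia6 (mm9 chr12:17273101-17273350, plus strand): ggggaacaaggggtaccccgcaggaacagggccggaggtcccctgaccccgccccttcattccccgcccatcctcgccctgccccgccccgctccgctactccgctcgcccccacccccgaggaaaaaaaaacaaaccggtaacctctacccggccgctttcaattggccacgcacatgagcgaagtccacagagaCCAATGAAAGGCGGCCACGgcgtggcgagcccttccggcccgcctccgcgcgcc
Hspa5 (mm9 chr2:34627365-34627614, plus strand): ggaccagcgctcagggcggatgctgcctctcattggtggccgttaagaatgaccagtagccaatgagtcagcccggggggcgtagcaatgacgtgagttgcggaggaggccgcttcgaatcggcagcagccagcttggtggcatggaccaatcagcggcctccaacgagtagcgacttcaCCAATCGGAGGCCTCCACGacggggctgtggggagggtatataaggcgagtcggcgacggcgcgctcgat
Derl3 (mm9 chr10:75355893-75356142, plus strand): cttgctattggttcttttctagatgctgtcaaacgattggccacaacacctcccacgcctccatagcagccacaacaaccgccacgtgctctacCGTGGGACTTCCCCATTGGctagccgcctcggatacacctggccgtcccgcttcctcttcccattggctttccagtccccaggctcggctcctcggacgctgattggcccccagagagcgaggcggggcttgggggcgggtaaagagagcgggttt
Sec24d (mm9 chr3:122970164-122970413, plus strand): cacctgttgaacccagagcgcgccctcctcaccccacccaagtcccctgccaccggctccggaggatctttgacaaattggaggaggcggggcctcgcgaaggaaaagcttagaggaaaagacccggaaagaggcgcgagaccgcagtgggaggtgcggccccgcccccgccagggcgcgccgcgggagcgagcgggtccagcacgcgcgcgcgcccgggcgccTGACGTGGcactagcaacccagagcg
The element lay 54 bases before the start in *Pdia6*, 70 in *Hspa5*, 105 in *Dnajc3*, 126 in *Creld2*, 156 in *Derl3* and 201 in *Ero1lb*, counted to its first base in the direction of the gene. It is read on the reverse strand in *Creld2*, *Derl3* and *Ero1lb*. The genes shown with this element thus differed widely from each other. *Dnajc3* fell 10.1-fold, *Creld2*, *Ero1lb* and *Pdia6* fell 4.86-fold, 4.77-fold and 3.60-fold, *Derl3* fell 1.70-fold and *Hspa5* had the values given above. The rest of the 14 tested genes with this element were not called and are not shown.

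Genes of ER-associated degradation were lower in 27 of 31 tested cases with 4 called, none higher and a median of -0.88. *Edem2*, which trims mannose from misfolded glycoproteins, was at 137 and 137 TPM in Xbp1 mutant, 783 and 799 TPM in Mist1 mutant and 844 and 809 TPM in reference PBs. It was 6.89-fold lower (log2 fold change -2.78 ± 0.09, adjusted p = 6.4e-07). *Os9*, a lectin that delivers glycoproteins to degradation, fell 3.99-fold, as did *Ufl1*, an enzyme of the ufmylation pathway, by 3.58-fold.

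Transport between the ER and the Golgi complex was represented by 44 tested genes, of which 43 were lower, none was higher and 14 were called, with a median of -1.17. The COPII cargo adaptor *Sec24d* averaged 24.7 ± 1.73 TPM (SD, n = 2) in Xbp1 mutant, 304 ± 6.03 TPM in Mist1 mutant and 312 ± 8.37 TPM in reference PBs. *Sec24d* was 14.6-fold lower (adjusted p = 1.2e-07), and its coat partner *Sec23b* was 3.97-fold lower. *Preb*, the exchange factor that starts COPII assembly, fell 3.82-fold, the cargo receptors *Lman1* and *Surf4* fell 4.76-fold and 3.83-fold, and the SNARE *Bet1* fell 5.54-fold. Genes that make sugar nucleotides comprised 11 lower and 1 higher of 19 tested with 6 called, and 10 lower and 6 higher without scaling. *Gmppb*, which makes GDP-mannose, was at 31.9 and 29.4 TPM in Xbp1 mutant, 144 and 150 TPM in Mist1 mutant and 166 and 158 TPM in reference PBs. *Gmppb* thus fell 5.69-fold, its partner *Gmppa* 4.23-fold, the hexosamine enzymes *Gfpt1* and *Pgm3* 3.33-fold and 4.08-fold, and *Nans* of the sialic acid pathway 2.66-fold.

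**Figure D4:**
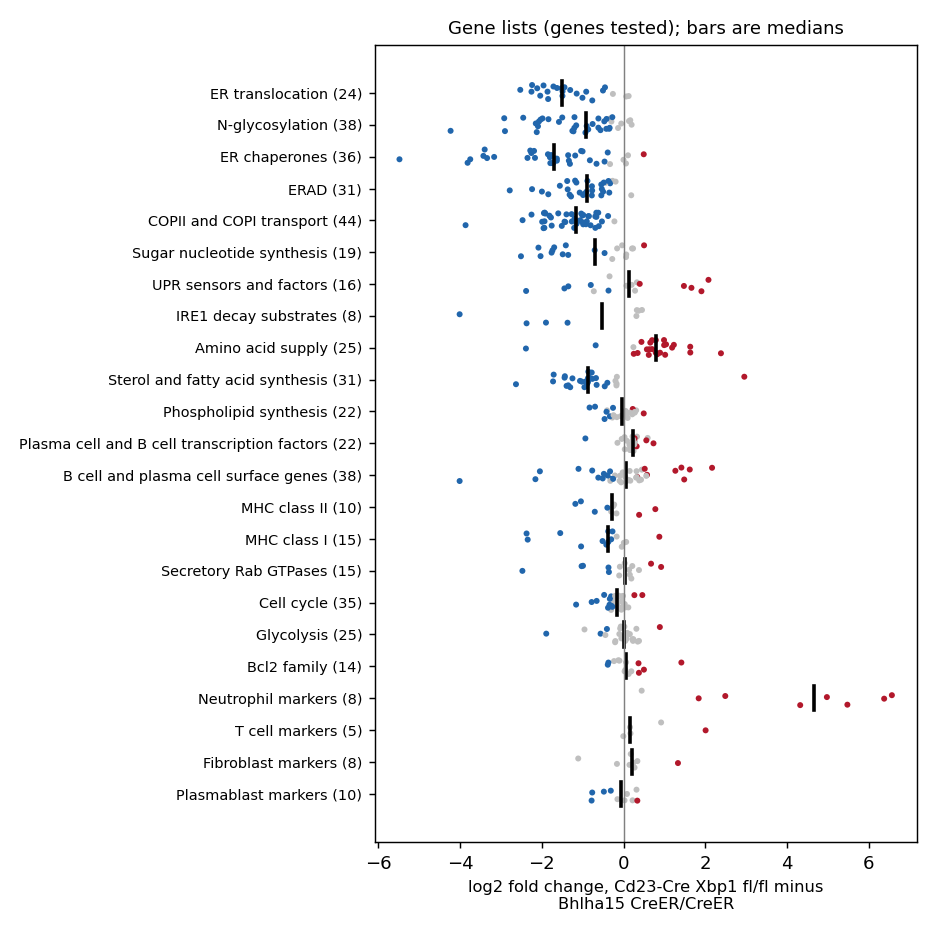
Log2 fold change of every tested gene in 23 lists with at least 5 tested genes, Xbp1 mutant minus Mist1 mutant PBs, where blue and red points passed an adjusted p of 0.05 as lower or higher, grey points did not and black bars are medians. Over all genes tested, 17.8% passed as lower and 9.34% as higher. The first 5 lists lie almost wholly to the left of 0, as does the sterol list, while 14 of 19 sugar nucleotide genes do, the amino acid list lies to the right with a median of 0.79, and neutrophil markers, of which 8 of 15 passed the filter, lie furthest to the right.

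The sensors of ER stress and the factors downstream of them moved in both directions, with 5 lower and 5 higher of 16 tested genes, and 4 and 7 without scaling. For comparison, 17.8% of all genes tested were lower and 9.34% were higher after scaling. *Ern1*, which codes for Ire1, was at 168 and 209 TPM in Xbp1 mutant, 56.2 and 43.9 TPM in Mist1 mutant and 50.5 and 52.2 TPM in reference PBs, which is 3.17-fold higher (log2 fold change 1.66 ± 0.11, adjusted p = 1.9e-05). *Atf6b*, a homologue of the sensor Atf6, was at 51.2 and 46.4 TPM in Xbp1 mutant, 219 and 209 TPM in Mist1 mutant and 231 and 228 TPM in reference PBs. The sensors thus differed from each other, as *Atf6b* fell 5.22-fold and the PERK gene *Eif2ak3* fell 2.72-fold, while *Atf6* had a log2 fold change of -0.37 (adjusted p = 0.020) that did not pass without scaling (-0.12, adjusted p = 0.24). Downstream of PERK, *Atf4* was at 562 and 540 TPM in Xbp1 mutant and 542 and 635 TPM in Mist1 mutant PBs, which overlap (adjusted p = 0.072). The stress-induced factor *Atf5* was at 546 and 537 TPM in Xbp1 mutant, 101 and 115 TPM in Mist1 mutant and 99.6 and 100.1 TPM in reference PBs, a 4.22-fold difference (adjusted p = 4.2e-06). *Trib3*, a pseudokinase, and *Ddit3*, the CHOP gene, were 3.75-fold and 2.79-fold higher.

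Ire1 also cleaves other mRNAs at the ER, and 8 tested genes described as such substrates in other cells comprised 4 lower and no higher genes, although without scaling 3 and with quantile normalization 2 others were higher. Over all genes tested, 17.8% were lower and 9.34% were higher after scaling. Cleavage of these mRNAs by Ire1 was not tested. *Itgb2*, the β2 integrin chain, was at 19.6 and 20.0 TPM in Xbp1 mutant, 273 and 265 TPM in Mist1 mutant and 339 and 313 TPM in reference PBs. It fell 16.1-fold (adjusted p = 1.2e-07). *Tapbp*, which loads peptides on MHC class I, the lysosomal enzyme *Hgsnat* and *Bloc1s1*, a subunit of a lysosomal trafficking complex, fell 5.18-fold, 3.72-fold and 2.58-fold, the last of these without being called.

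Among the lists not taken from the study, that of amino acid supply had the most higher members, with 22 higher and 2 lower of 25 tested genes, although only 3 and 1 were called. These counts compare with 9.34% higher and 17.8% lower over all genes tested, and with 0.239% and 1.66% called. The median of the list was 0.79. *Slc7a3*, a transporter of cationic amino acids, was at 109 and 122 TPM in Xbp1 mutant, 15.7 and 21.8 TPM in Mist1 mutant and 14.8 and 13.4 TPM in reference PBs, a 5.22-fold difference (adjusted p = 3.5e-05). The glycine transporter *Slc6a9* and the secreted hormone *Stc2* were each 3.10-fold higher. Most changes were smaller, as for asparagine synthetase *Asns*, *Psat1* of serine synthesis and the glutathione-degrading *Chac1* with 1.62-fold, 1.54-fold and 2.28-fold. In contrast, the glutamine transporter *Slc1a5* fell 5.23-fold.

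Sterol and fatty acid synthesis showed the opposite direction, with 26 lower and 1 higher of 31 tested genes and a median of -0.87. *Insig1*, a sterol-regulated membrane protein of the ER, was at 39.5 and 32.8 TPM in Xbp1 mutant, 189 and 186 TPM in Mist1 mutant and 222 and 219 TPM in reference PBs. *Insig1* and *Fdps* of the mevalonate pathway fell 6.19-fold and 3.30-fold and were called, and fatty acid synthase *Fasn* had a log2 fold change of -0.40 (adjusted p = 0.0055) that did not pass without scaling (adjusted p = 0.16). The higher gene was *Soat2*, which esterifies cholesterol and passed the filter only through the Xbp1 mutant libraries, with 8.53 and 7.63 TPM in Xbp1 mutant, 0.690 and 0.905 TPM in Mist1 mutant and 0.570 and 0.790 TPM in reference PBs. Of 22 phospholipid synthesis genes, 6 were lower, 2 were higher and none was called, against 17.8% lower and 9.34% higher over all genes. Without scaling, 1 of them was lower and 8 were higher.

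Of 22 tested transcription factors of B cells and plasma cells, 4 were higher, 1 was lower and none was called. Over all genes tested, 9.34% were higher and 17.8% were lower. *Prdm1*, the Blimp1 gene, was at 239 and 296 TPM in Xbp1 mutant, 206 and 215 TPM in Mist1 mutant and 205 and 175 TPM in reference PBs, with a log2 fold change of 0.08 ± 0.14 after scaling (adjusted p = 0.68). *Irf4* and *Pax5* had log2 fold changes of 0.22 (adjusted p = 0.17) and 0.28 (adjusted p = 0.085). Without scaling all of these factors passed the test as higher, with log2 fold changes of 0.34 for *Prdm1* (adjusted p = 0.041), 0.47 for *Irf4* (adjusted p = 9.2e-04) and 0.53 for *Pax5* (adjusted p = 0.018), and *Irf4* also did with quantile normalization (0.55, adjusted p = 3.3e-04). The gene that fell was *Myc*, by 1.91-fold, and the higher genes included *Aff1*, *Foxo1* and *Ikzf3* with 1.66-fold, 1.47-fold and 1.21-fold, of which *Ikzf3* did not pass in 8 of 14 alternative settings. The number of higher factors depended on the scaling and rose to 18 of 22 without scaling and to 11 with quantile normalization.

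Genes of the cell surface were divided, with 12 lower and 8 higher of 38 tested, and 8 lower and 15 higher without scaling. The Toll-like receptor homologue *Cd180* was at 11.2 and 8.09 TPM in Xbp1 mutant, 35.6 and 36.1 TPM in Mist1 mutant and 39.7 and 35.5 TPM in reference PBs, a 4.45-fold difference. The common cytokine receptor chain *Il2rg* fell 4.13-fold, whereas the adhesion molecule *Epcam* was 4.49-fold higher. *Sdc1*, whose product was used for sorting, had a log2 fold change of -0.31 (adjusted p = 0.027), which did not pass without scaling (-0.06, adjusted p = 0.36) or with quantile normalization (-0.12, adjusted p = 0.12), and the BCMA gene *Tnfrsf17* was 1.70-fold lower. MHC class I genes were lower in 10 and higher in 1 of 15 tested cases, including *H2-T23* with 5.08-fold, *H2-M3* with 2.92-fold and *B2m* with 2.05-fold, and without scaling 6 were lower and 4 higher. MHC class II genes were lower in 4 and higher in 2 of 10 cases. The proportions were 10 lower and 2 higher of 35 for cell cycle genes, among them *Cdc6* with 2.23-fold and *Cdc20* with 1.72-fold lower levels, 3 and 1 of 25 for glycolysis, and 2 and 4 of 14 for the Bcl2 family. These 3 lists are sensitive to the scaling and had 4 and 7, 1 and 5, and 0 and 7 lower and higher genes without it. For comparison with all lists of this paragraph, 17.8% of all genes tested were lower and 9.34% were higher after scaling. In the Bcl2 family, the proapoptotic *Bbc3* was 2.67-fold and the antiapoptotic *Bcl2l1* 1.30-fold higher.

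Several leading genes belonged to none of these lists. *Hid1*, which acts in the formation of dense core granules, was at 3.12 and 2.20 TPM in Xbp1 mutant, 88.4 and 89.0 TPM in Mist1 mutant and 120 and 127 TPM in reference PBs, a 38.6-fold difference (adjusted p = 2.4e-07). The potassium channel gene *Kcnk6*, the Fc receptor-like gene *Fcrla*, the phosphatase gene *Ppapdc1b* and the adenylate kinase gene *Ak7* were 25.7-fold, 16.3-fold, 11.7-fold and 13.0-fold lower. Among the higher genes, *Cox6a2*, the muscle form of a cytochrome c oxidase subunit, was at 190 and 246 TPM in Xbp1 mutant, 5.20 and 4.20 TPM in Mist1 mutant and 4.09 and 4.19 TPM in reference PBs. It was 38.2-fold higher (log2 fold change 5.26 ± 0.13, adjusted p = 1.4e-07). The secreted *Angptl6* and the phosphoinositide phosphatase *Inpp4b* were 4.87-fold and 4.40-fold higher at levels of at most 9.99 TPM.

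The largest fold changes among the higher genes were those of neutrophil genes. Of 15 neutrophil markers in the files, 8 passed the filter of 1 TPM in 2 libraries, but *Camp*, *Ngp* and *Retnlg* did so only through the Xbp1 mutant libraries, so that their values are given as a description. *S100a8* was at 45.7 and 43.6 TPM in Xbp1 mutant PBs, at 2.18 TPM in one Mist1 mutant library and listed at 0 in the other, and at 1.72 and 2.45 TPM in reference PBs. *S100a9* was at 39.4 and 43.2, at 1.40 and 0, and at 3.08 and 2.29 TPM, *Ngp* at 20.9 and 18.7, at 0.632 and 0.104, and at 1.04 and 0.620 TPM, in the same order. *Camp* and *Ltf* were lower in level but also separate between the groups, with 6.89 and 5.34 TPM and 8.55 and 8.61 TPM in Xbp1 mutant PBs. The summed level of the whole marker list was 143 and 142 TPM in Xbp1 mutant, 13.0 and 6.76 TPM in Mist1 mutant and 14.1 and 13.9 TPM in reference PBs, while the granule protease genes *Mpo*, *Elane*, *Prtn3* and *Ctsg* did not exceed 0.371 TPM in any library. The 14 T cell markers summed to 27.7 and 22.7 TPM in Xbp1 mutant, 13.5 and 16.6 TPM in Mist1 mutant PBs and to a mean of 15.4 TPM in reference PBs (n = 2), with *Cd3g* at 5.26 to 9.55 TPM and *Cd8a* listed at 0 in every library. Fibroblast markers summed to 1665 and 1530 TPM in Xbp1 mutant, 1406 and 833 TPM in Mist1 mutant and 1062 and 1271 TPM in reference PBs, and of 8 tested genes only *Thy1* passed the test, being 2.52-fold higher. The one macrophage marker that passed the filter, *Lyz2*, was higher at 15.1 and 15.8 TPM against 6.59 and 5.57 TPM in Mist1 mutant PBs. The other macrophage markers in the files did not exceed 0.510 TPM in any library, with *Itgam* the highest. The part of other cells in these values was not tested.

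A smaller number of genes departed from reference PBs in Mist1 mutant PBs. *Rab3d*, a GTPase of secretory granules, was at 4.74 and 4.07 TPM in Xbp1 mutant, 3.60 and 3.11 TPM in Mist1 mutant and 26.2 and 25.4 TPM in reference PBs. Both mutant groups were thus far below the reference, and they differed from each other by a log2 fold change of 0.14 with a 95% interval from -0.18 to 0.45 (adjusted p = 0.49). *Serpini1*, a protease inhibitor, was at 4.50 and 3.65 TPM in Xbp1 mutant, 5.93 and 6.56 TPM in Mist1 mutant and 24.2 and 23.4 TPM in reference PBs, so that the mutants differed 1.81-fold (adjusted p = 0.0045). *Bckdk*, a kinase of branched-chain amino acid breakdown, was at 56.0 and 54.6, 56.5 and 57.5, and 107 and 106 TPM in the same order. The related *Rab39b* behaved differently from *Rab3d*, as it was at 4.40 and 4.08 TPM in Xbp1 mutant, 20.5 and 20.0 TPM in Mist1 mutant and 21.7 and 23.1 TPM in reference PBs. Of 15 tested Rab and related genes, 5 were lower, 2 were higher and only *Rab39b* was called, against 17.8% lower and 9.34% higher over all genes. Without scaling 3 of them were lower and 6 higher, and with quantile normalization 3 and 3.

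Other genes were lower in Mist1 mutant PBs than in both other groups. The adaptor gene *Sla* was at 53.9 and 55.4 TPM in Xbp1 mutant, 20.7 and 24.9 TPM in Mist1 mutant and 58.8 and 53.8 TPM in reference PBs, and the proline synthesis gene *Pycr1* was at 48.0 and 48.9, 22.8 and 20.9, and 46.6 and 43.6 TPM. *Sla* and *Pycr1* were 2.02-fold and 1.86-fold higher in Xbp1 than in Mist1 mutant PBs (adjusted p = 8.3e-04 and 1.2e-04), as was the tRNA-modifying *Qtrt1* by 1.57-fold. *Ckb*, creatine kinase B, had intermediate values of 11.5 and 12.9 TPM in Mist1 mutant PBs, compared with 1.84 and 1.58 TPM in Xbp1 mutant and 23.8 and 18.3 TPM in reference PBs. The same order was seen for *Art4*, *D10Bwg1379e*, *Slc2a6*, *Myo1h* and *LOC100504608*, which were 7.77-fold, 8.91-fold, 3.71-fold and 3.90-fold lower in Xbp1 than in Mist1 mutant PBs for the first 4 and had a log2 fold change of -3.58 for the last, but their difference between Mist1 mutant and reference PBs did not pass the adjustment (adjusted p = 0.12 to 0.40). The called lower genes for which reference PBs were closer to Xbp1 mutant PBs comprised a small nucleolar RNA gene, *Fos* and *Rgs1*. *Fos* was at 86.6 and 98.8 TPM in Xbp1 mutant, 189 and 504 TPM in Mist1 mutant and 126 and 73.8 TPM in reference PBs, and *Rgs1* averaged 7.70 ± 1.54, 30.9 ± 12.8 and 12.2 ± 1.91 TPM (SD, n = 2). The Mist1 mutant libraries differed from each other more than 2-fold at *Fos*. *Serpini1*, *Bckdk*, *Sla*, *Pycr1*, *Qtrt1*, *Art4*, *Myo1h* and *Rgs1* were chosen after their values had been seen.

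**Figure D5:**
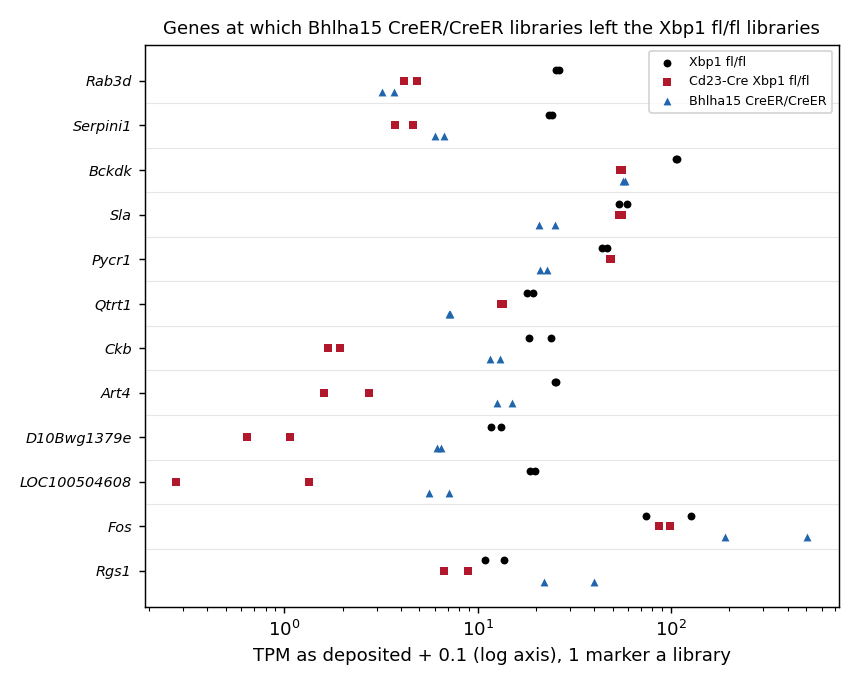
TPM as deposited plus 0.1 on a log axis, with 1 marker for each of the 6 libraries, for genes at which the Mist1 mutant libraries (blue) left the reference libraries (black). At *Rab3d*, *Serpini1* and *Bckdk* the Mist1 mutant libraries lie near the Xbp1 mutant libraries (red), at *Sla*, *Pycr1* and *Qtrt1* they lie below both groups, from *Ckb* to *LOC100504608* between both and at *Fos* and *Rgs1* above both.

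The lists of regulated genes from the study were described in the same way, although the Xbp1 lists were selected on the same Xbp1 mutant and reference libraries and are not independent evidence. Of 197 Xbp1-activated genes, 195 were lower in Xbp1 than in Mist1 mutant PBs, 171 were called and *Bhlha15* was higher, and of 28 tested Xbp1-repressed genes all 28 were higher and 22 were called. The Mist1-activated genes, which the study selected in the spleen PCs, comprised 80 tested genes with 19 lower, 12 higher and 6 called and a median of 0.13, whereas 14 were lower and 24 higher without scaling, with a median of 0.36. Their median log2 fold change was -0.60 for Xbp1 mutant and -0.59 for Mist1 mutant PBs against reference PBs, which were used in both. Between both mutants, 17.8% of all genes tested were lower and 9.34% were higher. The median over all genes was 0.01, and 0.26 without scaling. Of 6 tested Mist1-repressed genes, 3 were lower, including *Gnat2* with 5.17-fold and *Endog* with 3.88-fold, which were called. In spleen PCs of NP-KLH-immunized mice, where *Cd23*-Cre deleted *Bhlha15* in B cells in place of the knock-in, *Rab3d* was at 116 and 79.7 TPM in control and 4.57 and 6.14 TPM in mutant libraries, and *Sla* at 264 and 237 TPM and 64.6 and 70.8 TPM. *Fkbp11*, which did not differ detectably between Mist1 mutant and reference PBs (adjusted p = 0.92), was at 787 and 1014 TPM in control and 1590 and 1537 TPM in mutant PCs.

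Mist1 binding in PBs, a measurement that the comparison of both mutants did not use, was finally examined at the called genes. The Mist1 peak lists of both Bio-ChIP-seq experiments, made from LPS-stimulated *Bhlha15*(fl/fl) *R26*(BirA/BirA) PBs, shared 23806 common regions. The study reported a larger number of common peaks, with overlaps computed by another program. Here the overlapping peaks of both lists were merged into regions, and the reason for the different count was not tested. A common region lay within 1 kb of a coding transcript start in 139 of 174 called lower genes (79.9%), 11 of 26 called higher genes (42.3%) and 6979 of 10859 genes tested (64.3%). Called genes had to exceed a mean of 5 TPM, whereas the genes tested include many at lower levels. The shares were not matched for expression. Among the leading called lower genes, *Fkbp11*, *Rpn1*, *Sec24d* and *Itgb2* had such a region, although Mist1 mutant PBs were close to reference PBs at these genes, whereas *Dnajb9*, with the nearest region 27950 bases away, had none. The called higher gene *Cox6a2*, with the nearest region at 21618 bases, had none either. *Rab3d* had a region as well.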

How the data were processed

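RNA-seq of sorted day 8 iGB PBs was analysed as deposited by the authors in TPM, a unit per gene length and library sum. Per the labels and the methods of the study, the authors used a directional kit, trimmed reads with cutadapt, aligned them with STAR 2.4.2 to mm9, counted them per gene with featureCounts 1.5, left out immunoglobulin and T cell receptor genes and divided by gene length and library sum. The strand setting of the counting is not given in the sources used here, and 26 of the 115 genes in the robustness checks share exon bases with another gene, 22 of them on the opposite strand. TPM keep no read numbers, so that the depth and the counting error are unknown. The deposited Mist1 peak lists, made by the authors with Bowtie 1.0.0 and MACS, give positions alone.

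A suffix marking 3537 gene names was removed. Each library was divided by its median ratio to the average library, taken over genes detected in all 6 PB libraries. Genes that reached 1 TPM in 2 or more libraries entered the model as log2(scaled TPM + 0.1) with limma 3.58.1 (R 4.3.3; eBayes with trend) on all 6 PB libraries, which share 1 estimate of the spread. Tests were two-sided with Benjamini-Hochberg adjustment over all genes tested. With 2 libraries a group an exact permutation test cannot give a p below 0.333, and none was run. The fit was tested on simulated data. Lists are described by counts and medians without a test of the list, and they and the genes compared were chosen with earlier results of these data known. Named genes are both mutated genes, the 12 largest changes in each direction, the leading and the 4 most changed genes of each list, and the 6 called genes in which Mist1 mutant PBs lay furthest to 1 side of both other groups, of which the small RNA genes are not named. Some genes that this rule names are not reported here. Further genes were named after their values were seen where the text says so, or where a count of 5 or fewer called for it. Peaks sharing at least 1 base were merged into common regions with bedtools 2.31.1.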

Additional observations from a re-analysis of the deposited data

How the results depend on the processing

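The number of genes at an adjusted p under 0.05 depended most on the scaling. Without scaling it was 1266 lower and 3977 higher, and quantile normalization gave 2333 higher genes. A fold limit of 2 called 491 lower and 86 higher genes. Leaving out 1 library at a time gave 185 to 228 called lower, 25 to 32 called higher, 1594 to 2473 lower and 518 to 1456 higher genes at an adjusted p under 0.05, the lone library of a group being assumed to vary like the others. Of these, 560 higher genes remained without the first and 518 without the second Xbp1 mutant library. The reference PBs were on the Mist1 mutant side in 93.9% to 99.5% of called lower and 82.8% to 92.0% of called higher genes, the lowest values of both without the first Mist1 mutant library, and this share could not be computed from the 4 compared libraries alone. All 135 genes called lower without scaling were among the 201. For *Hspa5*, the log2 fold change was 0.25 without scaling and 0.91 with quantile normalization, and from -0.093 to 0.089 when 1 library was left out. Leaving out 1 library gave -0.069 to 0.23 for *Prdm1* and -0.051 to 0.59 for *Col1a1*. The cause of these shifts was not tested. Over 14 settings, 1556 of 1605 values of the named genes kept their direction and their side of the threshold, and 9 genes lost it under at least 1 setting: *Atf6*, *B2m*, *Bckdk*, *Bcl2l1*, *Fasn*, *Fos*, *Ikzf3*, *Sdc1* and *Tnfrsf17*. In turn, *Irf4*, *Pax5* and *Prdm1* passed it without scaling, *Irf4* with quantile normalization, and *Atf4* (-0.53) and *Col1a1* (0.59) without the first Mist1 mutant library.

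No paired analysis was possible because the labels carry no replicate numbers that link libraries of different groups, and they name no batch. With 2 libraries a group and no read numbers, differences of low genes are the least certain, and 1 library decides the spread at *Fos*.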
